A study of Homo sapiens with 12 samples.

Results

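The 39 genes described here lie on the long arm of chromosome 13 beyond PCDH9, between BORA and UPF3A near the chromosome end. They are 39 of the 59611 gene symbols in the deposited table of read counts, and they were chosen by earlier results of these data: genes of this arm had lower log2 fold changes between edited and control KOPN-8 as a group. The KOPN-8 values below therefore describe the members and are given without a test. The comparison in 697, which lies outside the values that chose the members, was tested.

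KOPN-8 and 697 were established from acute lymphoblastic leukaemia of the B lineage, and poly(A) RNA was sequenced in 4 groups of 3 libraries. Edited KOPN-8 is 1 clone, BA, labelled as a heterozygous knockout of SETD2, the gene of an enzyme that methylates histone H3 at lysine 36, and control KOPN-8 carried the sgRNA vector without a guide and is labelled SETD2 wild type. Edited 697 is 1 clone, BM_B, with the same labelled genotype, set against 697 cells with the empty vector. The labels do not say whether the control cells are clones. Replicates are labelled as biological. Each p-value reflects only how replicate libraries vary, with the spread estimated over all 12 libraries in the main fit. With 1 clone per line, it does not cover how clones differ.

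A gene's transcript level often follows the number of copies of its chromosome segment, so neighbouring genes that share a gain or a loss tend to move by a similar fraction. Some genes depart from such a common level because they are also controlled by transcription factors, methylation or feedback. The distal arm of chromosome 13 holds subunits of general machines, among them the RNA exosome, the anaphase-promoting complex, cullin ligases and the gamma-tubulin ring complex, beside genes with tissue-restricted use such as the B-cell survival factor gene TNFSF13B. DNA copy number was not measured, and its part in the values was not tested. In bulk RNA, fewer cells with a transcript and less of it per cell cannot be told apart.

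Libraries held 10378769 to 18278662 counts, so that 3 counts, the limit that a count of 0 allows, stood at 0.159 to 0.292 CPM (counts scaled to a common library size) and cover counting error only. All 8 B-lineage markers reached 1 CPM in every group, summed T-cell markers reached at most 0.594 CPM, and summed myeloid markers were 2.72 to 3.44 CPM in edited and 0.380 to 0.932 CPM in control KOPN-8. LYZ carried that difference, at 2.72 to 3.38 CPM in edited and 0.371 to 0.815 CPM in control KOPN-8. CD14 and MPO stayed at or under 0.0742 CPM in every KOPN-8 library. The part of the LYZ difference in the results was not tested. SETD2 itself was at 151 to 162 CPM in edited and 159 to 177 CPM in control KOPN-8 (log2 fold change -0.10, adjusted p = 0.309), and at 207 to 238 CPM in edited and 156 to 169 CPM in control 697 (0.44, adjusted p = 0.000103), so counts over the gene give no check of the labelled genotype.

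Promoter sequences are shown for 5 members whose values differ most in kind: PIBF1 at the shared level, TEX30 and PCCA above it, TNFSF13B below it, and BIVM without reads in KOPN-8. Each line gives the 250 bases before the gene's first listed RefSeq start (GRCh38.p14), 5′ to 3′ on the gene's strand, with every CG dinucleotide in capitals. PIBF1 lies at chr13:72781883-72782132, plus strand, TEX30 at chr13:102773787-102774036, minus strand, PCCA at chr13:100088843-100089092, plus strand, TNFSF13B at chr13:108269379-108269628, plus strand and BIVM at chr13:102798869-102799118, plus strand.
PIBF1: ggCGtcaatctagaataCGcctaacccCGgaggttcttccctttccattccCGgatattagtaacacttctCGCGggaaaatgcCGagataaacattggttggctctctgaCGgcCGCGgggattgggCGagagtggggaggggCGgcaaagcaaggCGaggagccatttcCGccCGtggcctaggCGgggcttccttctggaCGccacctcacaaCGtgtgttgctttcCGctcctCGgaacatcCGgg
TEX30: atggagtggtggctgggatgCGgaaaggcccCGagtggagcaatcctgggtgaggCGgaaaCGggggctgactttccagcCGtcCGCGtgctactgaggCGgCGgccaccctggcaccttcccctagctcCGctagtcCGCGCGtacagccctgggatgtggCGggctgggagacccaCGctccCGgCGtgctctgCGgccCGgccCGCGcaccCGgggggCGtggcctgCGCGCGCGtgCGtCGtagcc
PCCA: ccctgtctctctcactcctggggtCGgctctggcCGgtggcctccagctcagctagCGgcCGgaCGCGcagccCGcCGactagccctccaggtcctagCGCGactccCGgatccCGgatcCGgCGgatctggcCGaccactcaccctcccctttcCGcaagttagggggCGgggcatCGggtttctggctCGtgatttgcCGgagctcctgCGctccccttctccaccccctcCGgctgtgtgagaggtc
TNFSF13B: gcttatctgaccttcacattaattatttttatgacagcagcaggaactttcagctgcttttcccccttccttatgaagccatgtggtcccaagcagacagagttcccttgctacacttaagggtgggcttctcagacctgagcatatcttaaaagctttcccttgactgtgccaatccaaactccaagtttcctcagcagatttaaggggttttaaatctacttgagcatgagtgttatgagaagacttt
BIVM: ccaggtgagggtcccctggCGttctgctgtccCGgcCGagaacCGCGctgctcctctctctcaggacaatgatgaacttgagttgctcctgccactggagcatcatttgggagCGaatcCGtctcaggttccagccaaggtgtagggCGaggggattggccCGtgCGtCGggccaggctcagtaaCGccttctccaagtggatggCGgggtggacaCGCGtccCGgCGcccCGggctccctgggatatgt

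The windows hold 21 CG dinucleotides for PIBF1, 29 for TEX30, 22 for PCCA, 18 for BIVM and 0 for TNFSF13B. RefSeq gave a window for 38 of the 39 members, and TBC1D4 had no entry. Some members have several listed starts, such as TNFSF13B with 2, KLF12 with 4 and LMO7 with 5. Only the first listed start of each gene was used, and the others were not examined. Over the 38 members with a window the median was 22 CG, against 11 over 27303 genes. Those 27303 were not limited to genes with reads in these cells, so the medians cover unlike sets. This limit also holds for the shares of all genes given below for motifs. The 29 members at the shared level had a median of 23 CG. The 7 measured members away from it that had a window had a median of 22, so the medians were alike. Both ends of the range were members away from the shared level. RAP2A had the most with 45, KLF12 and LMO7 had 1 each and TNFSF13B had 0. The lowest count at the shared level was 4, in IPO5. Short motifs were counted on both strands. GGGCGG, the GC box, was in 21 of the 38 windows and in 42.3% of all genes' windows. CCAAT was in 15 members and 33.0% of all genes, and CCGGAAG, an ETS-type core, in 7 members and 8.82%. TATAAA was in 1 member window, that of RBM26, and in 11.1% of all genes. These are matches of letters only.

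In edited KOPN-8 most of the members stood at about 68% of their control level. Of the 39, 38 passed the filter on low counts and 37 had reads in KOPN-8; the median log2 fold change of these 37 was -0.56, or 67.7% of control, with quartiles of -0.66 and -0.39. For 33 of the 37 every edited library was below every control library, a pattern found in 24.7% of the 15218 genes tested, and for 3, KLF12, TEX30 and PCCA, every edited library was above every control (20.4% of genes tested). UGGT2 alone among the 37 had overlapping groups. A member was counted as following the shared level when its log2 fold change lay within 0.3 of the median. That held for 29 of the 37 members, 78.4%, against 16.2% of all genes tested. The band was centred on the members' own median, so the 16.2% does not show how tightly they shared a level. Of the 14806 tested genes with reads in KOPN-8, 61.0% lay within 0.3 of their own median. Of the 10564 with a KOPN-8 mean of 4 CPM or more, 72.5% lay within 0.3 of theirs. Among the members, KLF12, TEX30, PCCA and UGGT2 were farther above the members' median, and TBC1D4, TNFSF13B, LMO7 and RAP2A farther below. Just inside the limits were LAMP1 at -0.33 and UCHL3 at -0.84, and the nearest outside were RAP2A at -0.94 and, well beyond the upper limit, UGGT2 at 0.07. Since these values chose the set, they carry no test.

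**Figure D1:**
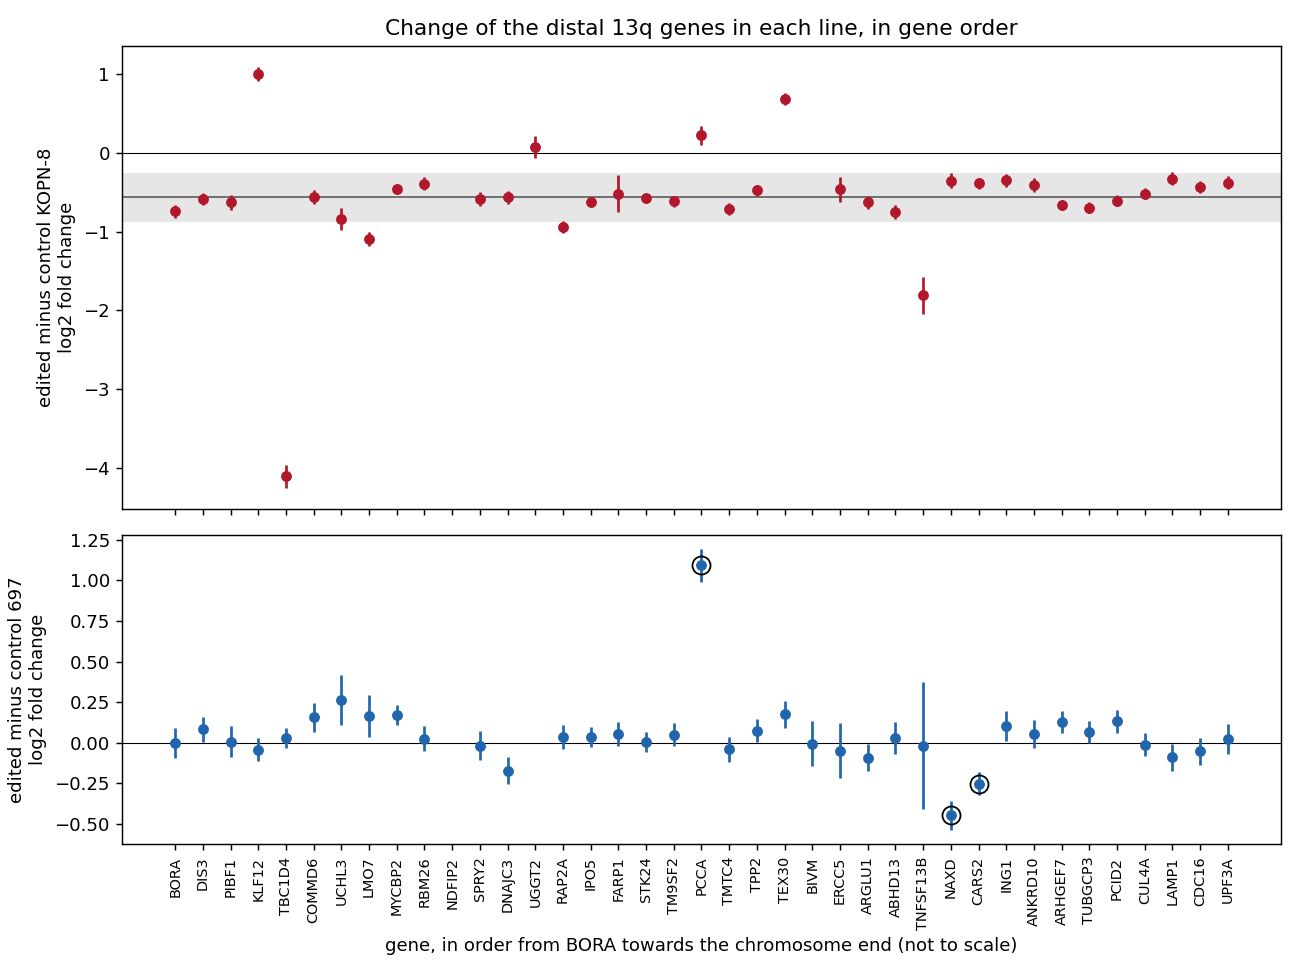
Log2 fold change (edited minus control, points; bars, SE of the edgeR fit) of the members in KOPN-8 (upper) and 697 (lower), in gene order from BORA towards the chromosome end. The line and grey band mark the KOPN-8 median of -0.56 and 0.3 either side; 29 of 37 members lie in the band, and circles mark PCCA, NAXD and CARS2, the 3 members called in 697.

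The 4 members closest to the median show what the shared level looks like in single libraries. DNAJC3, which encodes the co-chaperone p58IPK of the endoplasmic reticulum, had 42.1, 38.7 and 37.7 CPM in edited KOPN-8, against 58.3, 56.1 and 60.8 CPM in control KOPN-8 (log2 fold change -0.56, SE 0.0817). COMMD6, a COMM-domain protein gene, had 55.6, 52.5 and 51.9 CPM in edited and 83.0, 79.2 and 73.8 CPM in control libraries (-0.56, SE 0.0869). The groups of both genes were apart by more than the range within either group. STK24, a Ste20-family kinase gene, had 128, 129 and 120 CPM in edited and 187, 191 and 185 CPM in control KOPN-8 (-0.58, SE 0.0608). SPRY2, an inhibitor of receptor tyrosine kinase signalling, had 29.8, 34.8 and 37.9 CPM in edited and 54.4, 47.6 and 51.7 CPM in control KOPN-8 (-0.58, SE 0.0914). Every edited library of these genes was below every control, with the narrowest gap in SPRY2.

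KLF12, a zinc-finger transcription factor gene of the Krüppel-like family, was the member farthest above the others. It had 24.9, 27.9 and 26.5 CPM in edited KOPN-8 (26.4 ± 1.48, SD, n = 3), against 12.1, 14.6 and 12.7 CPM in control KOPN-8 (13.1 ± 1.29), which is 201% of control (log2 fold change 1.01, SE 0.0878). Its nearest neighbours among tested genes with a KOPN-8 mean of 4 CPM or more were PIBF1 at -0.63 and TBC1D4 at -4.11. Both were lower in edited KOPN-8. In 697 the gene was high in both groups, with 141, 154 and 157 CPM in edited and 155, 156 and 155 CPM in control libraries (-0.04, adjusted p = 0.777).

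TEX30 had 78.9, 81.2 and 85.0 CPM in edited KOPN-8 (81.7 ± 3.08, SD, n = 3), against 53.7, 48.1 and 50.7 CPM in control KOPN-8 (50.8 ± 2.81), or 161% of control (log2 fold change 0.69, SE 0.0740). Its nearest tested genes with a KOPN-8 mean of 4 CPM or more were TPP2 (-0.48) and ERCC5 (-0.46), both at the shared level. BIVM, without reads in KOPN-8, lies between TEX30 and ERCC5. TEX30 was lower in every 697 library than in any KOPN-8 library. Its 697 libraries did not overlap either, with 30.2, 29.9 and 30.6 CPM in edited and 26.5, 24.99 and 29 CPM in control 697, but the difference of 0.17 missed the threshold (adjusted p = 0.220).

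PCCA encodes the alpha subunit of propionyl-CoA carboxylase, the mitochondrial enzyme that takes up propionyl-CoA from some amino acids and odd-chain fatty acids. It had 8.11, 9.34 and 8.31 CPM in edited KOPN-8, against 7.57, 7.34 and 7.07 CPM in control KOPN-8 (log2 fold change 0.23, SE 0.124, 117% of control). The groups did not overlap, though the gap between them was narrow. Its nearest tested genes with a KOPN-8 mean of 4 CPM or more, CLYBL (-1.90) and TMTC4 (-0.71), were lower. In 697 PCCA was the member with the largest difference, 39.1, 45.8 and 47.1 CPM in edited (44.0 ± 4.26, SD, n = 3) and 21.1, 21.8 and 18.8 CPM in control 697 (20.6 ± 1.60). It rose there by 1.09 (SE 0.1005, adjusted p = 2.91e-08). The divergent transcript PCCA-DT differed by -0.21 in KOPN-8 and 0.16 in 697. PCCB, the gene of the beta subunit on chromosome 3, went the other way in KOPN-8. It had 47.0, 42.9 and 40.1 CPM in edited and 66.4, 60.6 and 64.1 CPM in control KOPN-8, and fell by 0.55 on the log2 scale (adjusted p = 8.64e-06), while in 697 it differed by 0.08 (adjusted p = 0.595).

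UGGT2, a relative of the folding sensor UGGT1 of the endoplasmic reticulum, had 19.1, 14.6 and 20.7 CPM in edited KOPN-8 and 19.0, 16.0 and 17.1 CPM in control KOPN-8 (log2 fold change 0.07, SE 0.137). The groups overlapped. The nearest tested genes with a KOPN-8 mean of 4 CPM or more were DNAJC3 at -0.56 and MBNL2 at -0.49. In 697 UGGT2 had 0 counts in all 6 libraries, below 0.292 CPM in the shallowest. UGGT1 itself, on chromosome 2, had 175, 171 and 165 CPM in edited and 146, 156 and 161 CPM in control KOPN-8 (0.14, adjusted p = 0.148), and fell by 0.24 in 697 (adjusted p = 0.0334).

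Highest among the members that followed the shared level were LAMP1 and ING1. LAMP1, which encodes a major lysosomal membrane glycoprotein, had 105, 104 and 90.7 CPM in edited KOPN-8 and 119, 129 and 127 CPM in control KOPN-8 (log2 fold change -0.33, SE 0.0790). ING1, the gene of a reader of methylated histone H3 lysine 4, had 49.3, 44.8 and 45.7 CPM in edited and 63.2, 55.4 and 59.6 CPM in control KOPN-8 (-0.35, SE 0.0868). Both had every edited library below every control.

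TBC1D4 was the member farthest below the shared level. It encodes AS160, a GTPase-activating protein for Rab proteins known from insulin-driven glucose transporter traffic. It had 0.742, 0.588 and 0.776 CPM in edited KOPN-8, or 14, 8 and 14 counts, against 11.9, 12.8 and 12.6 CPM in control KOPN-8, or 160, 220 and 231 counts. Edited cells thus held 5.79% of the control level (log2 fold change -4.11, SE 0.148). Its nearest tested genes with a KOPN-8 mean of 4 CPM or more were KLF12 (1.01) and COMMD6 (-0.56). The 697 line had 210, 195 and 202 CPM in edited and 208, 196 and 191 CPM in control libraries (0.03, adjusted p = 0.859), far above both KOPN-8 groups.

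TNFSF13B encodes BAFF, the ligand that sustains mature B cells. It had 1.43, 0.956 and 1.27 CPM in edited KOPN-8 and 4.60, 4.02 and 4.46 CPM in control KOPN-8, 28.6% of control (log2 fold change -1.81, SE 0.235). The groups were well apart at these low counts. Its nearest tested genes with a KOPN-8 mean of 4 CPM or more were ABHD13 (-0.75) and IRS2 (-0.68). In 697 it was under 1 CPM in all 6 libraries (log2 fold change -0.02, SE 0.392). Of its receptor genes, TNFRSF13C (BAFF-R) rose in edited KOPN-8, with 135, 137 and 152 CPM against 91.9, 98.1 and 101 CPM in control (0.54, adjusted p = 1.4e-06). TNFRSF13B (TACI) fell, with 64.8, 63.4 and 67.9 CPM in edited and 101, 88.9 and 99.8 CPM in control KOPN-8 (-0.56, adjusted p = 7.81e-06). TNFRSF17 was not tested because of low counts.

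LMO7, a gene of a LIM- and PDZ-domain protein of cell junctions, had 58.0, 52.3 and 53.7 CPM in edited KOPN-8 and 114, 125 and 112 CPM in control KOPN-8, 46.8% of control (log2 fold change -1.10, SE 0.0913). RAP2A, a Ras-family GTPase gene, had 48.3, 48.2 and 42.3 CPM in edited and 92.1, 88.6 and 85.9 CPM in control KOPN-8, 52.1% of control (-0.94, SE 0.0753). Both were clear of overlap and neither passed the test in 697 (0.16 with adjusted p = 0.503 for LMO7, 0.04 with adjusted p = 0.846 for RAP2A). Nearest to LMO7 among tested genes with a KOPN-8 mean of 4 CPM or more were UCHL3 (-0.84) and KCTD12 (-1.40), both low as well. For RAP2A they were MBNL2 (-0.49) and IPO5 (-0.62). UCHL3, a ubiquitin hydrolase gene, followed at 8.27, 8.97 and 11.4 CPM in edited and 18.3, 16.3 and 16.8 CPM in control KOPN-8 (-0.84, SE 0.142). ABHD13 had 37.9, 38.7 and 37.2 CPM in edited and 63.7, 62.8 and 64.2 CPM in control KOPN-8 (-0.75, SE 0.0869), and both counted as following the shared level.

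**Figure D2:**
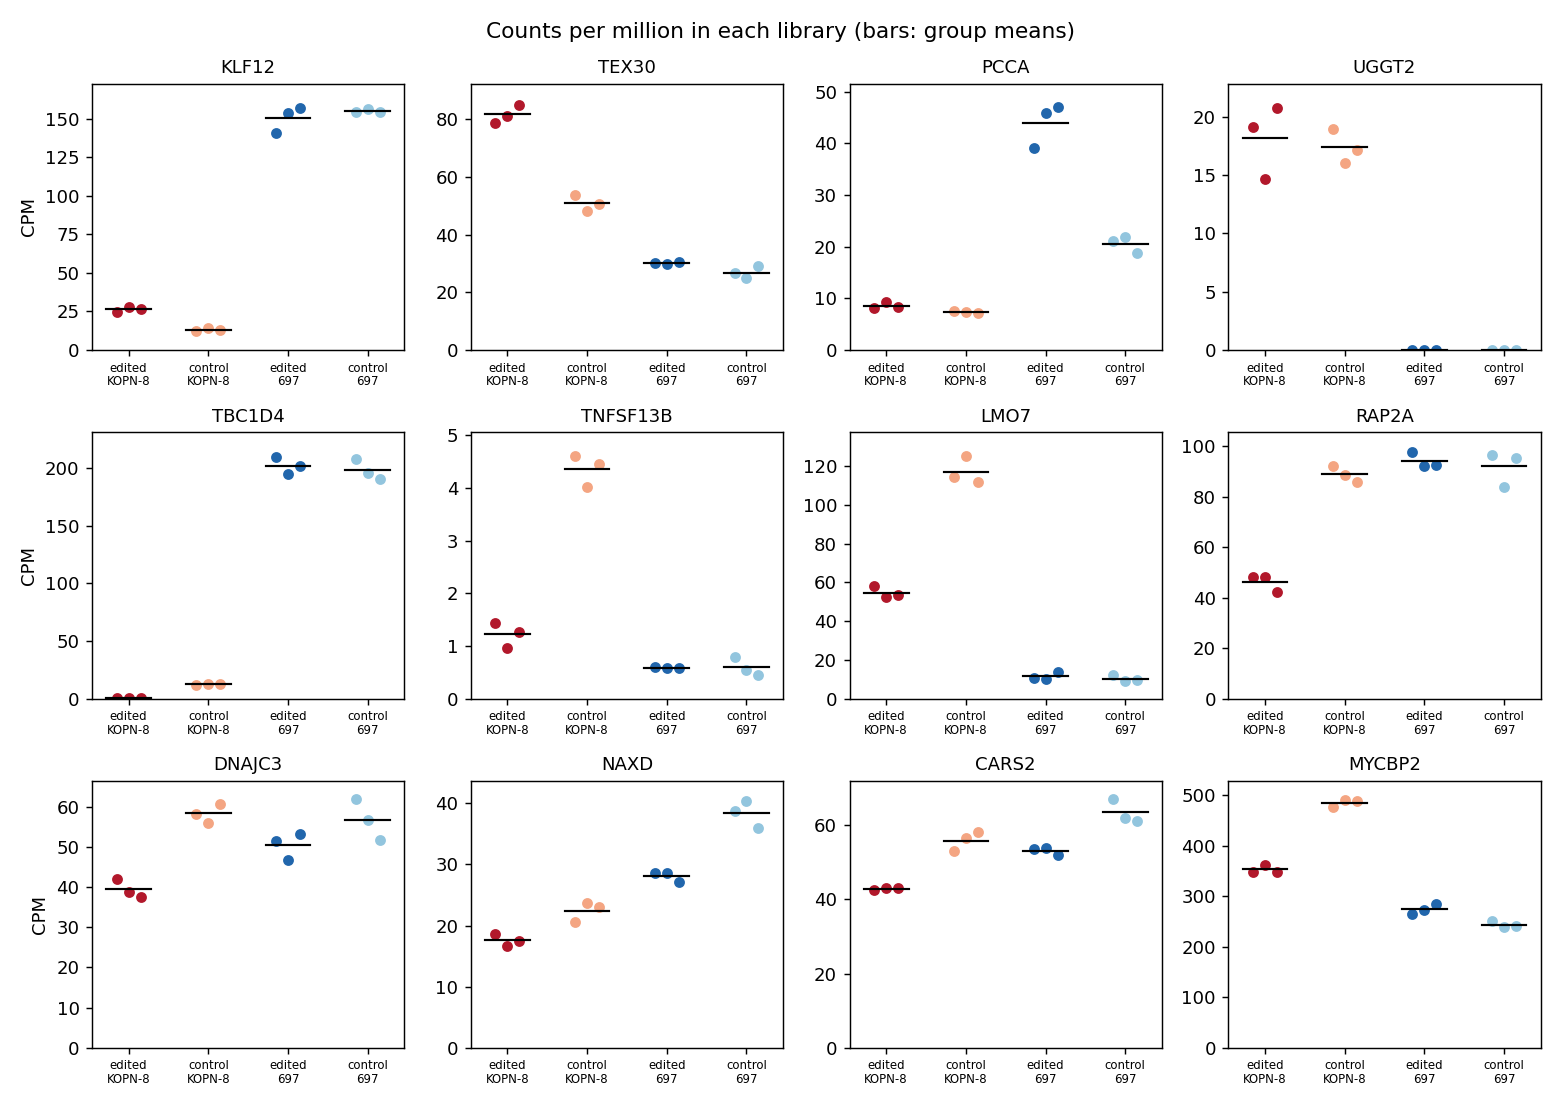
CPM in each library (points) and group mean (bars) for 12 members in edited KOPN-8, control KOPN-8, edited 697 and control 697, each panel on its own axis from 0. KLF12 and TEX30 are higher in edited KOPN-8, UGGT2 overlaps, TBC1D4 is at 0.588 to 0.776 CPM in edited KOPN-8, and PCCA is high in edited 697.

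Apart from MYCBP2, NAXD and CARS2, which are given with 697, the remaining members with a KOPN-8 value lay between -0.74 and -0.38. Genes of large assemblies were DIS3, the catalytic exosome ribonuclease gene, at -0.59, TUBGCP3 of the gamma-tubulin ring complex at -0.69, PCID2 of the TREX-2 export complex at -0.61, CUL4A, a ubiquitin ligase scaffold, at -0.52, CDC16 of the anaphase-promoting complex at -0.43 and UPF3A of nonsense-mediated decay at -0.38. Regulators of division and signalling were BORA, which helps activate Aurora A and PLK1, at -0.74, the centrosomal PIBF1 at -0.63 and the guanine nucleotide exchange factor gene ARHGEF7 at -0.66. The import receptor IPO5 was at -0.62, the transmembrane protein TM9SF2 at -0.61, the mannosyltransferase gene TMTC4 at -0.71, the peptidase TPP2 at -0.48 and the repair endonuclease ERCC5 at -0.46. ARGLU1, a splicing and coactivator gene, stood at -0.63, RBM26, an RNA-binding protein gene, at -0.39, and ANKRD10 at -0.41. FARP1, a FERM-domain protein gene, was at -0.52 but rests on 1.02 ± 0.114 CPM in edited and 1.45 ± 0.304 CPM in control KOPN-8 (SD, n = 3), against 133 ± 10.2 CPM in edited and 128 ± 5.21 CPM in control 697. BIVM and NDFIP2 gave no KOPN-8 value.

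BIVM had 0 counts in all 6 KOPN-8 libraries and 15.5, 15.02 and 19.4 CPM in edited and 15.4, 17.5 and 17.0 CPM in control 697 (log2 fold change -0.01). The limit at 0 counts was at most 0.223 CPM in any KOPN-8 library. POGLUT2, whose start is 42 bases from that of BIVM on the other strand, had 5 counts over the 6 KOPN-8 libraries and 710 over the 6 of 697. The read-through symbol BIVM-ERCC5 had 0 counts in every library, and ERCC5 overlaps BIVM on the same strand, so reads in the overlap cannot be told apart. NDFIP2, an adaptor gene for NEDD4-family ligases, had 1 count, in a control 697 library, and was not tested.

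Departures from the shared level were more frequent among members with low counts. Of 29 members at 20 CPM or more in control KOPN-8, 26 followed it, and of 8 below 20 CPM, 3 did. That limit was set after the values were seen, and a gene's own abundance was not tested as a cause. Along the arm the medians of the measured members were -0.59 from BORA to SPRY2 (8 of 11 at the shared level), -0.54 from DNAJC3 to ERCC5 (8 of 12) and -0.48 from ARGLU1 to UPF3A (13 of 14). Of the measured members of the last stretch, TNFSF13B was the only departure.

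Of the 7 protein-coding pairs that begin within 1000 bases of each other on opposite strands, 6 were measured in KOPN-8, and the members of a pair were close. BORA and MZT1 were at -0.74 and -0.64, DIS3 and PIBF1 at -0.59 and -0.63, and CUL4A and PCID2 at -0.52 and -0.61. ABHD13 and the DNA ligase gene LIG4 were at -0.75 and -0.84, CARS2 and ING1 at -0.38 and -0.35, and COMMD6 and UCHL3, with the widest gap, at -0.56 and -0.84. Differences within a pair ran between 0.0356 and 0.282, with a median of 0.0893. All genes of these pairs lay within 0.3 of the members' median, and unpaired genes were not compared. The 4 measured noncoding partners at the same spacing were farther from their members, at low counts over the 6 KOPN-8 libraries. RBM26-AS1 (994 counts) was at -0.82 and RBM26 at -0.39. DNAJC3-DT (601 counts) was at -0.88 and DNAJC3 at -0.56, and PCCA-DT (151 counts) at -0.21 and PCCA at 0.23. AL442128.2 (46 counts) was at 0.33 and ANKRD10 at -0.41. The bodies of BORA and DIS3, DIS3 and PIBF1, FARP1 and STK24, CARS2 and ING1, and PCID2 and CUL4A overlap on opposite strands with reads on both, and the strand setting of the counting is not given in the sources used here, so their reads cannot be told apart.

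**Figure D3:**
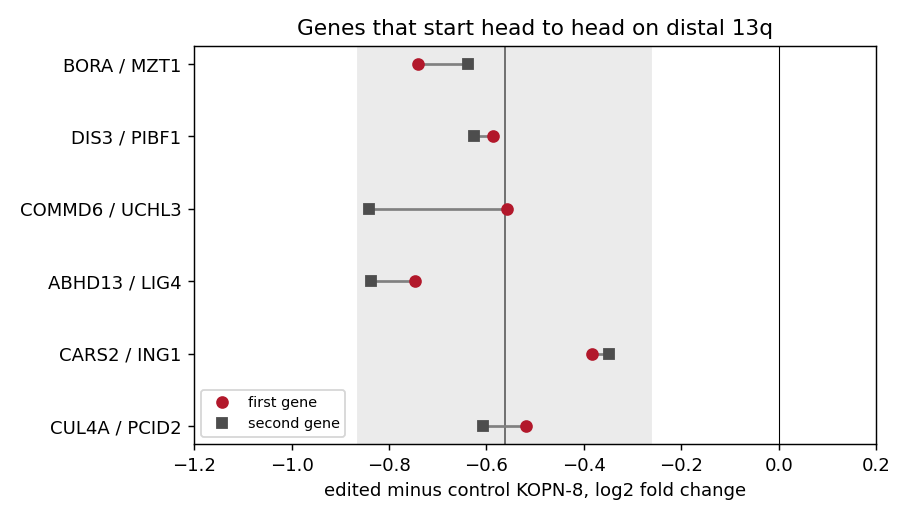
Log2 fold change, edited minus control KOPN-8, of 6 protein-coding pairs that start within 1000 bases on opposite strands (circle, first-named gene; square, second). The line and grey band mark the members' median and 0.3 either side; the widest gap, COMMD6 to UCHL3, is 0.282.

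Other genes of the arm had a similar median but a wider spread. Restricted to genes whose KOPN-8 mean reached 4 CPM, 35 members had a median of -0.56 with an interquartile range of 0.258, and 35 other distal 13q genes beyond PCDH9 had -0.64 with a range of 0.467. Of these other distal genes, 23 (65.7%) were within 0.3 of the members' median. Without the limit on level the 58 other distal genes had a median of -0.62, a wider interquartile range of 0.837, and 27 (46.6%) within 0.3. On chromosome 13 before PCDH9 the median of 120 genes at 4 CPM or more was -0.03. Of these, 12 (10.0%) were within 0.3 of the members' median and 89 (74.2%) within 0.3 of their own. Over all 10564 genes at that level the median was 0.01. In 697 the medians were 0.03, 0.03, 0.04 and 0.00 in the same order. No test was made between these sets, since the KOPN-8 values chose the members.

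Library by library, the members' medians relative to each gene's mean over all 12 libraries were -0.25, -0.28 and -0.16 in edited KOPN-8, against 0.32, 0.33 and 0.35 in control KOPN-8 (log2 of CPM plus 0.5, 34 genes). Edited 697 had -0.01, -0.09 and -0.04, and control 697 -0.00, -0.14 and -0.09. Control KOPN-8 was thus the high group and the others lay closer together. Over 36 members measured in both lines, the median log2 ratio to control 697 was -0.15 for edited KOPN-8 and 0.40 for control KOPN-8. The other distal genes had -0.15, -0.12 and -0.10 in edited and 0.47, 0.42 and 0.49 in control KOPN-8 (26 genes). The 113 genes before PCDH9 had 0.05, 0.04 and 0.01 in edited and 0.01, 0.06 and 0.03 in control KOPN-8, with overlap. These values give no copy number for either KOPN-8 group.

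**Figure D4:**
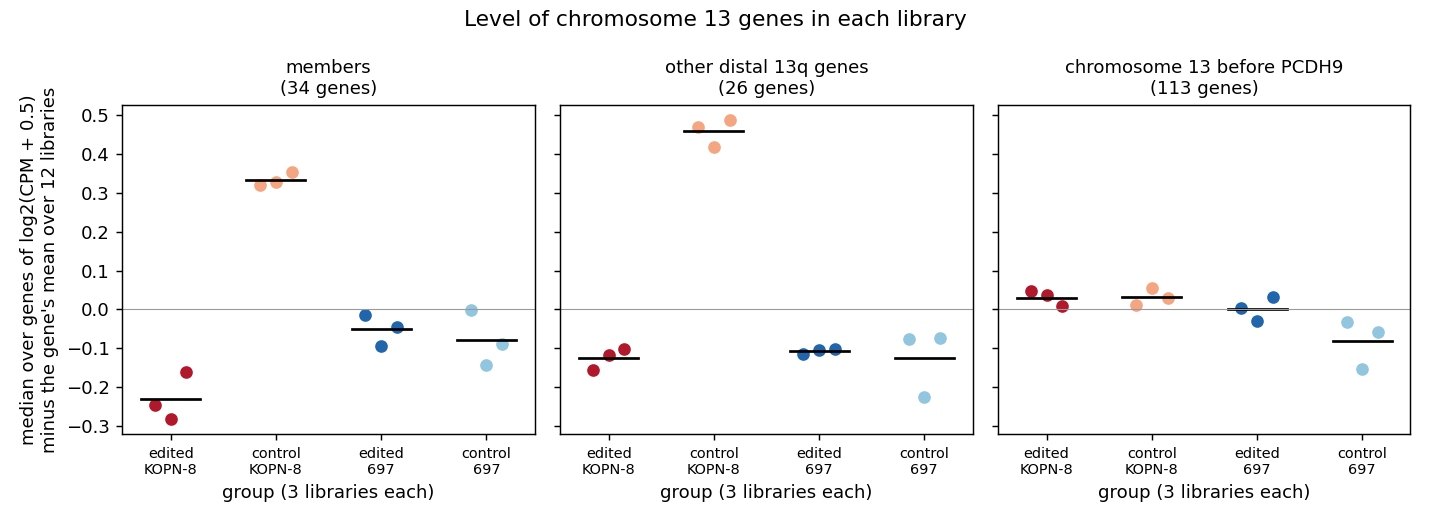
Median over genes of log2(CPM + 0.5) minus the gene's mean over 12 libraries, for members, other distal 13q genes and chromosome 13 genes before PCDH9; points are libraries and bars group means. Control KOPN-8 is high for both distal sets (0.32 to 0.35 for members), and the 2 KOPN-8 groups overlap before PCDH9, where control 697 is lowest (-0.15 to -0.03).

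The members as a group stood close to zero in 697. Of 37 tested with reads, 3 were called (8.11%, against 9.45% of all genes tested): PCCA rose, and NAXD and CARS2 fell. That is 1 higher against 4.85% of genes called higher, and 2 lower against 4.60% called lower. The 34 others lay between -0.17 and 0.26, and the median of the 37 was 0.03. At an unadjusted p under 0.05 there were 6 members. The 3 calls come from the main fit, which does not pair libraries. With the replicate block 4 members were called, and the share of all genes called in that fit is not given here. Every edited library was above every control for 3 members, PCCA, TEX30 and MYCBP2 (12.5% of all genes), and below every control for 2, NAXD and CARS2 (11.6%).

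NAXD encodes a dehydratase that repairs damaged NAD(P)H, and was 28.6, 28.6 and 27.1 CPM in edited and 38.8, 40.4 and 36.0 CPM in control 697 (log2 fold change -0.45, SE 0.0891, adjusted p = 0.00135). In KOPN-8 it was 18.5, 16.7 and 17.5 CPM in edited and 20.6, 23.6 and 23.0 CPM in control libraries (-0.35, SE 0.0929). It was lower in both edited clones. CARS2, the mitochondrial cysteinyl-tRNA synthetase gene, had 53.6, 53.9 and 52.1 CPM in edited and 67.2, 62.0 and 61.2 CPM in control 697 (-0.25, SE 0.0715, adjusted p = 0.0232). That call was lost without control 697 replicate 1 (adjusted p = 0.0867), without edited 697 replicate 1 (0.0579) and without edited 697 replicate 3 (0.0736). In KOPN-8 it had 42.6, 43.2 and 42.9 CPM in edited and 53.0, 56.6 and 58.1 CPM in control libraries (-0.38, SE 0.0713). Its divergent partner ING1 was at -0.35 in KOPN-8 and 0.10 in 697.

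MYCBP2, a large ubiquitin ligase gene singled out here after its values were seen, had groups that did not overlap in either line, with opposite directions. It had 347, 362 and 349 CPM in edited and 476, 490 and 488 CPM in control KOPN-8 (log2 fold change -0.46, SE 0.0601). In 697 it had 265, 272 and 284 CPM in edited and 251, 239 and 241 CPM in control libraries (0.17, adjusted p = 0.0858). With the replicate number as a block in each line, which pairs same-numbered libraries, MYCBP2 was called in 697 (0.17, adjusted p = 0.0385).

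Genes elsewhere in the genome that work with the members were listed to see whether the partners of lower members also differed, and they can be tested in both lines. In KOPN-8, 131 such genes were measured, and 17 rose and 13 fell, 22.9% called against 28.7% of all genes tested (11.5% higher and 17.2% lower). Without control KOPN-8 replicate 1 the count of calls was 16, and the share of all genes called in that fit is not given here. In 697, 9 of 132 rose and 7 fell (12.1% against 9.45%), and the replicate block gave 23 calls. The median log2 fold change was 0.02 in KOPN-8 and 0.03 in 697, and 101 of the 131 partners did not pass the test in KOPN-8.

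Partner subunits of the members' complexes were counted next, in KOPN-8. Of 15 other genes of the anaphase-promoting complex, to which CDC16 belongs, 0 rose and 1, ANAPC11, fell (-0.26, adjusted p = 0.0372). Of 12 exosome genes, EXOSC7 fell (-0.30, adjusted p = 0.00509) and C1D rose (0.28, adjusted p = 0.0394), and of 4 TREX-2 genes none was called. Among 8 gamma-tubulin ring genes TUBG1 fell (-0.25, adjusted p = 0.0219). MZT1, a small subunit of that complex that lies on distal 13q itself, had 70.6, 71.0 and 61.1 CPM in edited and 112, 104 and 99.6 CPM in control KOPN-8 (-0.64). Among 12 genes of cullin 4 ligases 2 rose and 1, the damage sensor DDB2, fell by 0.42 in KOPN-8 (adjusted p = 0.0109). In 697 DDB2 rose by 0.43 (adjusted p = 0.0463), with 34.2, 47.8 and 44.9 CPM in edited and 26.0, 35.5 and 32.5 CPM in control libraries, which overlap. CUL4B, the paralog of CUL4A, had 86.6, 90.1 and 82.0 CPM in edited and 79.0, 89.99 and 82.6 CPM in control KOPN-8 (0.04, adjusted p = 0.745).

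Nonsense-mediated decay had 3 genes higher and 1 lower of 13, with SMG1 at 0.27 (adjusted p = 0.0102). UPF3B, the paralog of UPF3A, was 57.6, 56.8 and 60.5 CPM in edited and 52.0, 51.0 and 51.6 CPM in control KOPN-8 (0.18, adjusted p = 0.0758). Those groups did not overlap, but the difference missed the threshold. Nucleotide excision repair had 4 higher and 1 lower of 16, with ERCC3 at 0.23 (adjusted p = 0.0125). For BORA, its kinase gene PLK1 fell, to 133, 135 and 121 CPM in edited and 194, 188 and 185 CPM in control KOPN-8 (-0.54, adjusted p = 2.79e-06).

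Of 12 genes of endoplasmic reticulum folding and stress, 2 rose and 1 fell. EIF2AK3 encodes PERK, the kinase that DNAJC3 inhibits, and had 54.7, 55.4 and 58.2 CPM in edited and 37.1, 38.0 and 38.9 CPM in control KOPN-8 (0.56, adjusted p = 6.69e-06). EDEM1, which directs misfolded glycoproteins to degradation, rose by 0.46 (adjusted p = 0.000125), and the transcription factor gene XBP1 fell by 0.41 (adjusted p = 0.000166). Of 5 propionyl-CoA pathway genes, PCCB and MCEE fell.

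Close relatives of members gave 4 higher and 2 lower of 28 in KOPN-8. NDFIP1, the relative of NDFIP2, fell in both lines, to 1.70, 1.40 and 1.11 CPM in edited KOPN-8 against 3.34, 4.31 and 3.15 CPM in control KOPN-8 (-1.36, adjusted p = 1.44e-05), and by 0.45 in 697 (adjusted p = 0.0129). RAP2C, the relative of RAP2A, rose by 0.29 (adjusted p = 0.00431), and UCHL5, the relative of UCHL3, fell by 0.31 (adjusted p = 0.0067). CARS1, the cytosolic relative of CARS2, had 72.2, 65.9 and 79.7 CPM in edited and 62.9, 53.0 and 61.2 CPM in control KOPN-8 (0.30, adjusted p = 0.0936).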

How the data were processed

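Poly(A) RNA of 12 libraries was sequenced with a stranded kit, per the labels. The authors deposited raw read counts per gene symbol, and a table of normalized values (signal) that serves here as an alternative only. Trimmomatic, STAR, DESeq2 and hg19 are named in the submitters' processing notes, and no source used here gives the read counter, its strand setting, the annotation or the versions. The members and the gene lists were chosen with earlier results of these data known.

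Counts of 15218 genes that passed edgeR's filterByExpr were fitted with edgeR 4.0.16 (R 4.3.3, limma 3.58.1) by TMM scaling and the robust quasi-likelihood test, with 1 mean per group over all 12 libraries. P-values were adjusted over all genes tested (Benjamini-Hochberg) and called under 0.05. CPM are TMM-scaled and not divided by length. A member or gene with 0 counts in all libraries of a line has no fold change there. The fitting was tested on simulated data.

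Named members were the 6 farthest above and the 6 farthest below the median KOPN-8 change, the 4 closest and those called in 697; MYCBP2, BIVM and FARP1 were added after their values were seen. Named partners were CUL4B, UPF3B, PCCB, UGGT1, NDFIP1, CARS1 and the 6 others called in KOPN-8 with the smallest p; further called partners were added after their values were seen. Gene order and overlaps came from GENCODE release 29 and promoters from RefSeq (GRCh38.p14); since the counts used hg19, no coordinates of theirs were converted.

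Same-numbered edited and control libraries deviated together in 697 (r = 0.158, 0.296 and 0.143 across genes, all over 0.1). In KOPN-8 they did so more weakly (0.0673, 0.0609 and 0.106), with libraries of different number at -0.0700 to 0.00911. Numbers were taken to pair libraries in 697 only, where every pair passed 0.1, from the data and not from the labels. The main fit did not use this pairing. The replicate block, an alternative only, added replicate terms in both lines. Alternatives were DESeq2 1.42.0, TMM factors without chromosomes 8 and 13, no filter, each line alone, the replicate block, another window around the median and leaving out each library.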

Additional observations from a re-analysis of the deposited data

Results flagged for a closer look

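The difference between the KOPN-8 and 697 log2 fold changes (KOPN-8 minus 697) was singled out for 1 member and 11 partner genes. MYCBP2 differed by -0.63: every edited KOPN-8 library was below its controls and every edited 697 library above its controls, and the difference was not tested, since KOPN-8 values chose the members.

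Only the named partner genes were screened, and some were named for a small p in KOPN-8 or after their values were seen. A difference between the lines was favoured for those genes. The values therefore do not show how common such differences are. For the partner genes the difference was tested by edgeR in the fit over all 12 libraries. It was -0.64 for PCCB (adjusted p = 0.000201), -0.90 for NDFIP1 (adjusted p = 0.00801), -0.64 for PLK1 (adjusted p = 6.56e-05) and -0.62 for XBP1 (adjusted p = 0.000146). It was -0.85 for DDB2 (adjusted p = 0.00177), which fell in KOPN-8 and rose in 697, and -0.40 for EXOSC7 (adjusted p = 0.013). It was 0.38 for UGGT1 (adjusted p = 0.00787), 0.82 for TNFRSF13C (adjusted p = 1.13e-06), 0.41 for EIF2AK3 (adjusted p = 0.0115), 0.41 for RAP2C (adjusted p = 0.0111) and 0.36 for EDEM1 (adjusted p = 0.0305). NDFIP1 was lower in both edited clones, so its difference is one of size.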

How the results depend on the processing

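The members' median KOPN-8 log2 fold change was -0.56 with DESeq2 and with the authors' normalized values, -0.58 with TMM factors that leave out chromosomes 8 and 13, -0.55 without the filter and -0.57 with the replicate block. Leaving out each library gave -0.56 to -0.54. The 29 members at the shared level became 28 to 29 without single libraries, 25 with a window of 0.2 and 30 with 0.4. UGGT2 lay between -0.03 and 0.20 without single libraries. Calls among members in 697 were 2 to 3 without single libraries, 2 without the filter or with 697 alone, and 4 with DESeq2 or the block, which added MYCBP2. CARS2 was lost without the filter (adjusted p = 0.0542) and with 697 alone (0.0785). Partner calls in KOPN-8 were 16 to 23 without single libraries, with the 16 reached without control KOPN-8 replicate 1. They were 44 with KOPN-8 alone and 41 with the block. Shares of all genes called under these settings are not given, so the counts cannot be set against them. Same-numbered KOPN-8 libraries deviated together only weakly, and the cause of the higher counts was not tested. Partner calls in 697 were 11 to 15 without single libraries and 23 with the block. The depth limits genes under about 0.292 CPM, and few replicates limit small differences.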
